A study of Phyllostachys violascens with 6 samples.

Results

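The 5 unigenes described here encode core subunits of the chloroplast photosystems. They are psbA (Cluster-4806.6084), psbB (Cluster-4806.16767), psbK (Cluster-4806.20182) and psbM (Cluster-4806.18675) of photosystem II and psaA (Cluster-4806.42572) of photosystem I. They are 5 of the 63776 unigenes in the deposited table, and all 5 were among the 31936 that passed the filter on low counts. They were chosen by identifier from unigenes that the study had listed as different between sulcus and culm. The sulcus-to-culm values below are therefore the kind of values that selected these unigenes, and they are described without a test.

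The sampled tissues were green sulcus and yellow culm, both cut from the longest internodes of Phyllostachys violascens cv. Viridisulcata, an ornamental bamboo whose internode carries a green groove, the sulcus, on a yellow culm. There were 3 libraries of each tissue, all labelled wild type, with no treatment in either group. The methods describe 3 biological replicates from plants of uniform size but do not say whether same-numbered sulcus and culm libraries came from 1 plant. The tissue of each library was taken from its label, and the direction of every difference rests on it. The labels give the sulcus as green and the culm as yellow, whereas 1 passage of the study's text has these colours the other way round. That passage also gives the measured chlorophyll and carotenoid contents as lower in sulcus, the tissue it calls yellow. The labels were not checked against independent tissue markers. The libraries held between 16405396 and 22505338 counts. The 5 unigenes together took between 0.0108% and 0.0190% of the counts of a sulcus library and between 0.00174% and 0.00303% of those of a culm library. Levels are given as CPM, the count divided by the total count of the library and multiplied by 1000000.

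Photosystem II uses light to take electrons from water, and photosystem I uses light again to pass them on towards NADP+. PsbA, the D1 protein, carries cofactors of the photosystem II reaction centre and is degraded and replaced in the light. PsbB, also called CP47, is an inner antenna that binds chlorophyll and hands energy to that centre. PsbK and PsbM are small proteins with 1 membrane-spanning helix, and PsbM lies at the interface of the photosystem II dimer. PsaA forms, with PsaB, the reaction centre of photosystem I. All of these genes lie in the plastid genome of land plants, where neighbouring genes are often transcribed together, whereas the outer antenna proteins of the LHCB family come from nuclear genes.

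The annotation of the unigenes showed that several hold more than the gene that names them. The best nucleotide match of each of the 5 unigenes was the complete chloroplast or plastid genome of another bamboo, of the genus Phyllostachys, Fargesia or Arundinaria. The psbB unigene also matched the protein families of PsbT, PsbN, PsbH and of PetB and PetD, which are subunits of the cytochrome b6f complex. The psbK unigene also matched the PsbI family. The psaA unigene matched the shared PsaA/PsaB family, ribosomal protein S14 and tetratricopeptide repeats. The psbA and psbM unigenes matched only their own protein families. Counts of psbB, psbK and psaA are therefore counts over more than 1 gene, and the sources used here do not state the strand of the counting. The deposited table holds no lengths, so the level of 1 unigene was not compared with that of another. Comparisons were made between libraries for 1 unigene, or between libraries for ratios or shares of counts among the unigenes. No sequence of the 5 unigenes was at hand, and none is printed.

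All 5 unigenes were higher in every sulcus library than in any culm library, and the size of the difference varied widely among them. The ratio of the mean CPM of sulcus to that of culm was 12.6 for psbM, 7.36 for psbA, 6.07 for psbK, 2.40 for psaA and 2.38 for psbB. As background, 2.22% of the 31936 tested unigenes had all 3 sulcus libraries above all 3 culm libraries, and 13.6% were higher in sulcus in all 3 same-numbered pairs. Since the unigenes were selected on this difference, nothing is read from their count of 5 of 5 on either measure. In tissue samples of this kind, fewer cells with chloroplasts and less plastid RNA per cell cannot be told apart. The paper's methods name the library kit but not how RNA was selected for it. The values here and the ratios below therefore describe plastid RNA only as these libraries captured it.

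**Figure D1:**
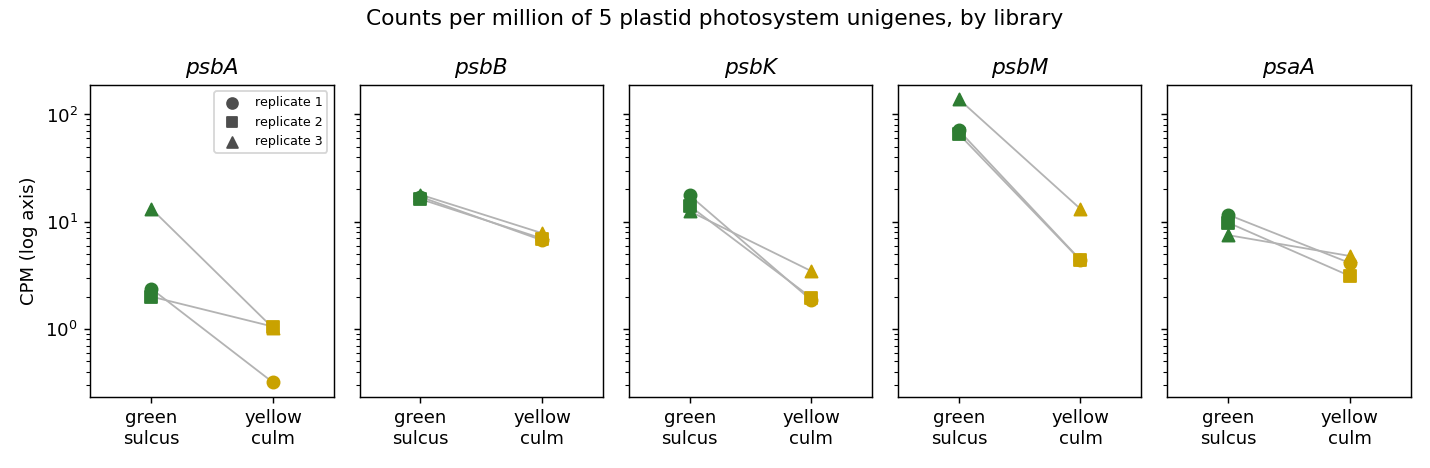
Level of each unigene in CPM, on a log axis, in the 3 green sulcus libraries and the 3 yellow culm libraries, with grey lines joining libraries of the same replicate number. In every panel the sulcus points lie above the culm points. The psbB points lie close together within each tissue, and sulcus replicate 3 of psbA, at 13.2 CPM, stands apart from the other sulcus points.

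The psbB unigene was the most even of the 5. It had 17.1, 16.3 and 17.9 CPM in sulcus replicates 1 to 3, against 6.71, 6.97 and 7.82 CPM in culm replicates 1 to 3. The means were 17.1 ± 0.811 CPM in sulcus and 7.17 ± 0.580 CPM in culm (SD, n = 3 each). The highest library exceeded the lowest of its tissue by a factor of 1.1 in sulcus and 1.17 in culm, so the replicates of either tissue differed far less than the tissues did.

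The psaA unigene, the reaction centre subunit of photosystem I, had 11.6, 9.83 and 7.51 CPM in sulcus, against 4.13, 3.13 and 4.80 CPM in culm. Its means were 9.66 ± 2.07 CPM in sulcus and 4.02 ± 0.841 CPM in culm (SD, n = 3 each). The gap between the tissues was the narrowest of the 5, since the lowest sulcus library, replicate 3, was 1.56 times the highest culm library, also replicate 3.

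The psbK unigene had 17.6, 14.0 and 12.5 CPM in sulcus, against 1.85, 1.96 and 3.47 CPM in culm. Here sulcus replicate 3 was the lowest of its tissue and culm replicate 3 the highest of its own, so the third pair was the closest. The means were 14.7 ± 2.61 CPM in sulcus and 2.43 ± 0.902 CPM in culm (SD, n = 3 each).

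The psbM unigene had the widest gap between the tissues. It had 1167, 1276 and 2574 counts in sulcus, against 83, 87 and 296 counts in culm. Scaled to depth these were 71.1, 65.7 and 139 CPM in sulcus, against 4.4, 4.36 and 13.2 CPM in culm. Replicate 3 was the highest library in both tissues, at 2.03 times the mean of the other sulcus replicates and 3.0 times that of the other culm replicates. The lowest sulcus library still was 4.99 times the highest culm library.

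The psbA unigene had few counts. These were 39, 39 and 245 in sulcus, against 6, 21 and 23 in culm, or 2.38, 2.01 and 13.2 CPM in sulcus, against 0.318, 1.05 and 1.02 CPM in culm. Sulcus replicate 3 alone was 6.04 times the mean of the other sulcus libraries. The mean of sulcus, 5.87 CPM, was smaller than its SD of 6.38 CPM (n = 3), while that of culm was 0.798 ± 0.416 CPM (SD, n = 3). Without sulcus replicate 3 the log2 fold change of psbA, fitted as described below, was 1.45 in place of 2.85.

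Within same-numbered pairs the ratio of sulcus to culm was above 1 in 3 of 3 pairs for each unigene. For psbB it was 2.54, 2.33 and 2.29 in pairs 1 to 3, and the 95% counting intervals, which ran from 1.90 to 3.15 over the 3 pairs, overlapped throughout. These intervals are exact binomial ones and cover the error of counting only. For psaA the ratios were 2.82, 3.14 and 1.56, and the interval of pair 3, from 1.21 to 2.03, lay below that of pair 2, from 2.36 to 4.28, and below that of pair 1, from 2.15 to 3.72.

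For psbK the ratios were 9.50, 7.18 and 3.62. The interval of pair 3 ended at 4.74, below the start of that of pair 2 at 5.12 and that of pair 1 at 6.68. For psbM the ratios were 16.2, 15.0 and 10.6, with pair 3 between 9.37 and 12.0, pair 2 between 12.1 and 18.9 and pair 1 between 12.9 and 20.5. Pair 3 thus had the smallest ratio for psbB, psaA, psbK and psbM, and for the last 3 of these its interval did not touch those of the other pairs.

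For psbA the order was different. The ratios were 7.48, 1.90 and 13, with intervals of 3.14 to 21.6 in pair 1, 1.09 to 3.41 in pair 2 and 8.44 to 20.8 in pair 3. Pair 2 and pair 3 of psbA therefore differed by more than the counting error, and pair 1, with 6 counts in culm, was too imprecise to be set apart from either.

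**Figure D2:**
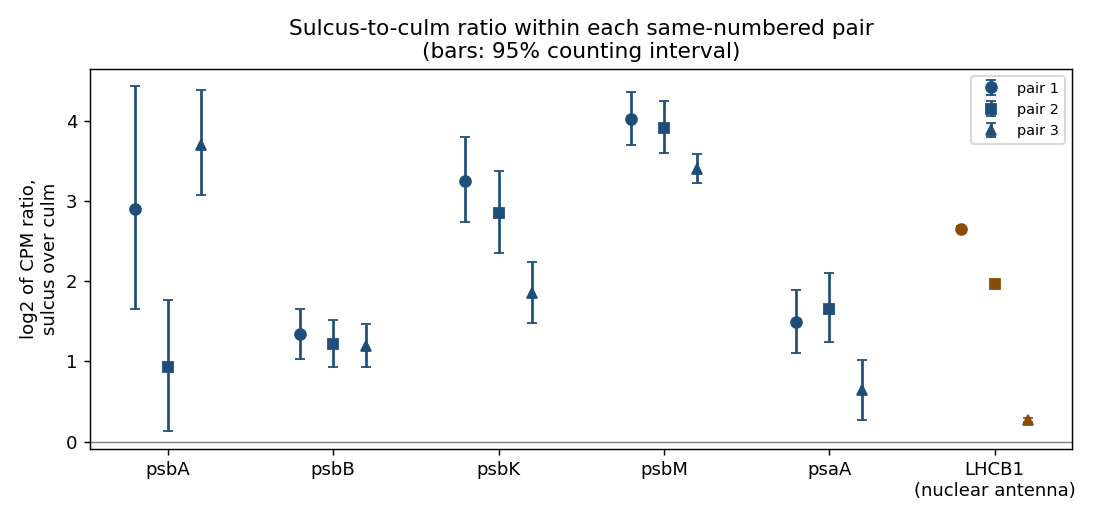
Log2 of the CPM ratio of green sulcus to yellow culm in each same-numbered pair, for the 5 photosystem unigenes and for LHCB1 of the nuclear antenna. Bars are 95% counting intervals, and the line at 0 marks equal levels. The 3 points of psbB coincide within their bars, those of psbA are spread between 0.93 and 3.70, and LHCB1 stands at 2.66 in pair 1 and 0.27 in pair 3.

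The differences between subunits were next taken within libraries, where the scaling to depth cancels. Over the 3 pairs the log2 ratio of sulcus to culm averaged 3.78 ± 0.33 for psbM, 2.65 ± 0.72 for psbK, 2.51 ± 1.42 for psbA, 1.26 ± 0.54 for psaA and 1.25 ± 0.08 for psbB (SD, n = 3 pairs each). Of the 10 pairs of unigenes that can be formed, 5 differed in 1 direction in all 3 library pairs, and in these 5 the within-library count ratio did not overlap between tissues. The 10 comparisons reuse the same 5 unigenes and no background share is given, so this count is a description only. On the log2 scale the difference between tissues was largest for psbM, with 2.51 ± 0.25 for psbM minus psaA, −2.52 ± 0.27 for psbB minus psbM and −1.13 ± 0.39 for psbK minus psbM (SD, n = 3 pairs). It was larger for psbK than for psaA and psbB, with 1.38 ± 0.32 for psbK minus psaA and −1.40 ± 0.65 for psbB minus psbK. For psbB minus psaA it was −0.01 ± 0.50, with single pairs at −0.15, −0.43 and 0.55. Each of the 4 comparisons that involve psbA changed its sign between library pairs, so psbA had no fixed place in the order.

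Photosystem II was then set against photosystem I as the sum of the psbA, psbB, psbK and psbM counts over the psaA count of the same library. This ratio was 9.29, 9.97 and 24.3 in sulcus replicates 1 to 3, against 3.21, 4.59 and 5.31 in culm replicates 1 to 3. It was higher in sulcus by factors of 2.89, 2.17 and 4.59 in the 3 pairs, a mean log2 difference of 1.62 ± 0.54 (SD, n = 3 pairs), and the tissues did not overlap. With psbA left out of the sum the mean was 1.63, and with each subunit given equal weight by a geometric mean it was 1.28.

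The size of this difference in summed counts depended largely on psbM. Shares of the photosystem II sum are shares of counts, which also depend on unigene length, so each was compared only between libraries. The psbM unigene made up 65.7%, 67.0% and 76.1% of the sum in sulcus, against 33.1%, 30.4% and 51.7% in culm. The psbB unigene made up 15.8%, 16.6% and 9.79% in sulcus, against 50.5%, 48.6% and 30.7% in culm. Without psbM, an alternative chosen after the counts were seen, the photosystem II to photosystem I ratio was 3.18, 3.29 and 5.81 in sulcus, against 2.15, 3.19 and 2.57 in culm. The tissues then lay nearly side by side in pair 2, with a factor of 1.03, and overlapped. The mean log2 difference without psbM was 0.60 ± 0.57 (SD, n = 3 pairs).

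Each photosystem II unigene was also set against psaA alone. The psbB to psaA count ratio was 1.47, 1.65 and 2.38 in sulcus, against 1.62, 2.23 and 1.63 in culm, and the ranges overlapped. It was lower in sulcus in pairs 1 and 2, by factors of 0.900 and 0.738, and higher in pair 3, by a factor of 1.46. Factors and their 95% intervals, conditional exact ones, were taken from the rounded counts, and the intervals ran from 0.633 to 1.28, from 0.511 to 1.06 and from 1.06 to 2.02. The intervals of pairs 1 and 2 include 1, and that of pair 3 does not. The psbA to psaA ratio overlapped too, with 0.204, 0.204 and 1.76 in sulcus, against 0.0769, 0.337 and 0.213 in culm.

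The psbK to psaA ratio did not overlap. It was 1.51, 1.43 and 1.67 in sulcus, against 0.449, 0.626 and 0.722 in culm, and higher in sulcus by factors of 3.37, 2.27 and 2.31 in the 3 pairs. The psbM to psaA ratio was 6.11, 6.68 and 18.5 in sulcus, against 1.06, 1.40 and 2.74 in culm, with factors of 5.74, 4.76 and 6.76. Among these unigenes psbB and psaA thus had nearly the same mean difference between tissues, and psbK and psbM had larger ones. Photosystem I is represented by psaA alone. The counts of the psbB unigene include the cytochrome b6f genes on it, those of psbK the PsbI match and those of psaA its neighbours. These ratios are therefore ratios of unigenes and not of single genes.

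**Figure D3:**
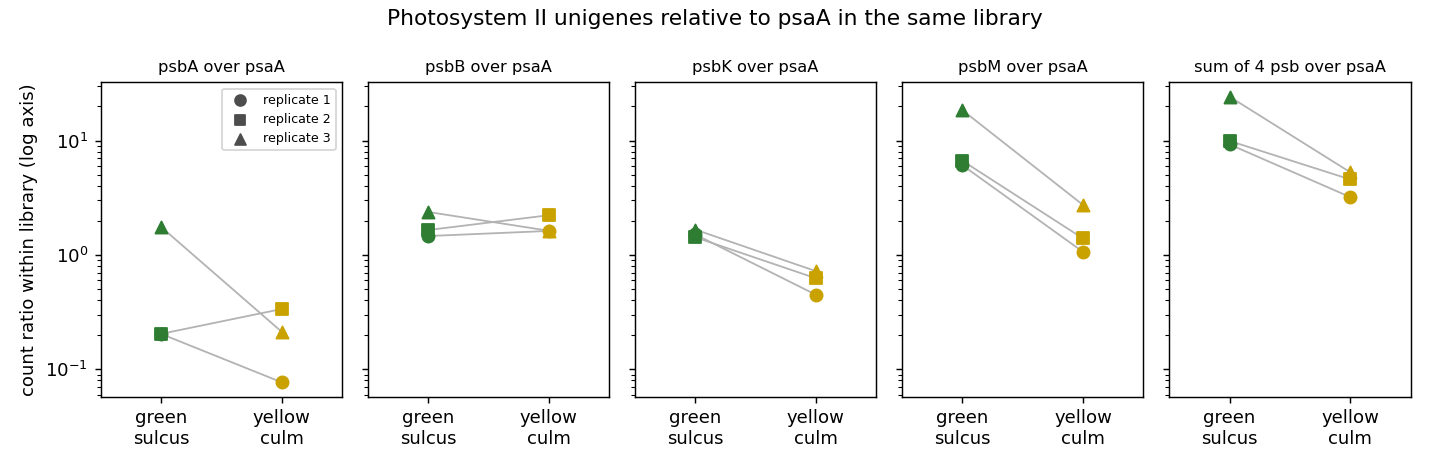
Count of each photosystem II unigene, and of the sum of all 4, divided by the psaA count of the same library, on a log axis, for green sulcus and yellow culm libraries joined by replicate number. The lines of psbB cross between tissues, those of psbA spread without order, and for psbK, psbM and the sum every sulcus point lies above every culm point.

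In a fit across all unigenes by edgeR, log2 fold changes were taken as sulcus minus culm. They were 3.67 for psbM (standard error 0.55), 2.85 for psbA (0.89), 2.61 for psbK (0.30), 1.27 for psaA (0.26) and 1.25 for psbB (0.16). The median over the 5 was 2.61, beside −0.0059 over all 31936 tested unigenes. In the order of all tested log2 fold changes psbM stood in place 2 from the top, psbA in place 8, psbK in place 12, psaA in place 77 and psbB in place 83. The psbA value and the median depend on replicate 3, and without sulcus replicate 3 both were 1.45. The psbM value was 4.36 without culm replicate 3 and 3.26 without sulcus replicate 3.

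A unigene was called higher in sulcus where its log2 fold change exceeded 1 and its adjusted p was below 0.05. On this rule edgeR's quasi-likelihood test called 0 of the 5, and 0% of the 31936 tested unigenes. Without adjustment, at the same p and fold limits, it called 5 of 5 and 0.26% of all. Limma voom called 0 of 5 and 0% of all with its adjusted p. DESeq2 called 3 of 5, psbB, psbK and psbM, and 0.0293% of the unigenes for which it gave an adjusted p. The study, which used DESeq2 at the same limits, reported 424 differentially expressed genes and had listed all 5. Here DESeq2 without a block called only 16 unigenes higher and 7 lower in sulcus, so most of that list was not called again. In edgeR's fit with a replicate block the calls were psbB, psbK and psbM, again 3 of 5, and 0.0595% of all, and DESeq2 with the block called 5 of 5 and 0.108%. The blocked edgeR log2 fold changes were 3.75 for psbM (standard error 0.14), 2.60 for psbK (0.25), 2.59 for psbA (0.51), 1.26 for psaA (0.21) and 1.25 for psbB (0.14). These counts are set beside the background for description only, because the unigenes were selected on this contrast.

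The replicate number, which dominated the tested unigenes as a whole, took a small share in most of these 5, chosen for a tissue difference. Of the sum of squares of log2 CPM, 98.9% lay between tissues for psbB, 95.2% for psbK, 90.8% for psbM, 87.5% for psaA and 58.7% for psbA, where the median over all tested unigenes was 5.84%. Between replicate numbers lay 0.506% for psbB, 0.601% for psbK, 8.85% for psbM, 3.75% for psaA and 26.6% for psbA, beside a median of 71.8% over all tested unigenes. The share between tissues is a form of the contrast on which the unigenes were chosen. The shares of a unigene add up to its whole sum of squares. A low share between replicate numbers therefore follows in part from that choice, and nothing is read from it. In psbM the rest after both terms was 0.348%, the smallest of the 5, and replicate 3 was high in both of its tissues. In psaA and psbK replicate 3 was the lowest in sulcus and the highest in culm, and 8.74% and 4.23% were left over.

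Other unigenes of the study's list with a plastid genome as best match numbered 14, of which 13 were tested. Of these 13, 12 had a positive log2 fold change, with a median of 2.32 over all 13, beside the 2.61 of the photosystem unigenes. The plastid ATP synthase unigene atpA had 23, 27.4 and 26 CPM in sulcus, against 3.44, 2.41 and 5.29 CPM in culm. Its log2 fold change was 2.79 with a standard error of 0.28. The unigene of rbcL, the large subunit of the carbon-fixing enzyme Rubisco, had 6.40, 4.12 and 7.51 CPM in sulcus, against 0.689, 1.76 and 2.09 CPM in culm. The fitted log2 difference was 1.98 with a standard error of 0.46. The subunits ndhD, ndhK and ndhF of the chloroplast NADH dehydrogenase-like complex had log2 fold changes of 2.83, 2.06 and 1.83. The unigenes of plastid gene expression, rpl33, matK and rps4, had 3.44, 2.41 and 2.32. The psbM value of 3.67 was above those of all but 1 of the 13. That one, Cluster-4806.21439, had 9, 14 and 13 counts in sulcus, against 0, 1 and 0 counts in culm, and its fitted log2 fold change of 4.86 rests on 1 culm count in all. The 1 unigene with the opposite direction, Cluster-4806.10156, is described as a putative acetyl-coenzyme A carboxylase subunit and had only 2, 7 and 8 counts in sulcus, against 17, 14 and 29 in culm. Its log2 fold change was −1.62, with 0.49 as standard error. These unigenes too had been listed for a difference between the tissues, so their direction is no independent evidence.

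**Figure D4:**
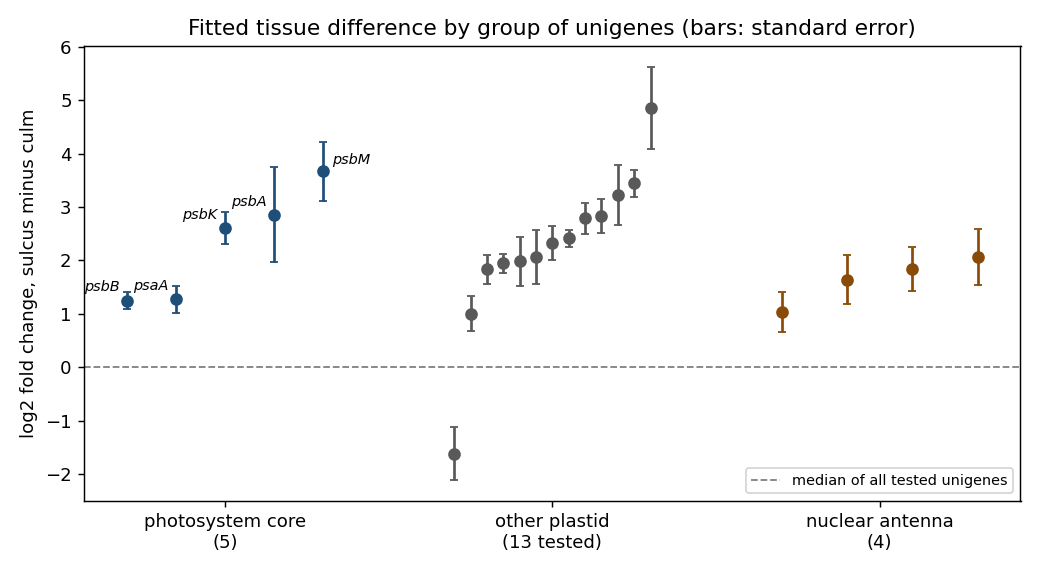
Log2 fold change, sulcus minus culm, of the edgeR fit for the 5 photosystem core unigenes, the 13 tested other plastid unigenes and the 4 nuclear antenna unigenes. Bars are standard errors and the dashed line is the median of all tested unigenes, −0.0059. The photosystem unigenes run from 1.25 for psbB to 3.67 for psbM. The highest other plastid point, at 4.86, is a unigene with 1 culm count in all, and the others lie below psbM.

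The 4 nuclear antenna unigenes, whose proteins deliver light energy to photosystem II, had log2 fold changes between 1.04 and 2.07. The most abundant, LHCB1 (Cluster-4806.24156), had 4218, 3432 and 1838 CPM in sulcus, against 669, 877 and 1524 CPM in culm. Its ratio of sulcus to culm was 6.30 in pair 1, 3.91 in pair 2 and 1.21 in pair 3. Over the 4 antenna unigenes the ratios ran from 3.76 to 10.9 in pair 1, from 2.67 to 5.59 in pair 2 and from 0.998 to 1.45 in pair 3. For the 5 photosystem unigenes they ran from 2.54 to 16.2 in pair 1, from 1.90 to 15.0 in pair 2 and from 1.56 to 13 in pair 3. In pairs 1 and 2 the ranges overlapped. In pair 3 they did not, but the lowest photosystem ratio, psaA with a counting interval of 1.21 to 2.03, and the highest antenna ratio, with one of 1.37 to 1.53, lay within counting error of each other. In sulcus replicate 3 the LHCB1 unigene stood at 0.481 times the mean of the other sulcus libraries and in culm replicate 3 at 1.97 times that of the other culm libraries. The corresponding factors were 1.07 and 1.14 for psbB, 0.70 and 1.32 for psaA, 0.792 and 1.82 for psbK, and 2.03 and 3.0 for psbM. For psbA, with few counts, they were 6.04 and 1.49. All 6 counts of each antenna unigene held fractions, as did 3 of those of psbB and 1 of those of psaA, so reads of these unigenes could have been divided with similar ones. The difference between the groups of unigenes was not tested.

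The unigenes most like the 5 were sought by Pearson's r between the log2 CPM of each tested unigene and the mean standardised profile of the 5 over the 6 libraries. The 6 libraries share a tissue or a replicate number and are not independent, so r is given as a description. Both the 5 unigenes and the plastid list came from unigenes that the study had listed as different between the tissues. High values of r among them are thus in part built in, and names were at hand only for listed unigenes. The 10 highest values lay between 0.977 and 0.993. Of these 10 unigenes, 6 were other plastid unigenes of the list above, among them rpl33 at 0.993, rps4 at 0.987, ndhD at 0.983, matK at 0.983 and atpA at 0.981. A further one, Cluster-4806.30628 at 0.983, matched CAS, a calcium sensing receptor protein of the chloroplast thylakoid in Arabidopsis, and averaged 64.5 CPM in sulcus and 27.1 CPM in culm. The other 3 carried no name in the sources used here and averaged at most 0.857 CPM over the 6 libraries. The most similar antenna unigene, an LHCB1 unigene (Cluster-4806.23561), had an r of 0.881. Among the 5 themselves psbB followed the mean profile at 0.992, psbM at 0.991, psbK at 0.984, psaA at 0.918 and psbA at 0.841.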

How the data were processed

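The authors filtered Illumina reads of NEBNext Ultra libraries, assembled them with Trinity, grouped the contigs into unigenes with Corset and deposited estimated counts per unigene, neither normalized nor filtered. The counting tool and its strand setting are not given in the sources used here. Names and annotations came from the study's annotated list of 424 differentially expressed unigenes, which held all 23 unigenes of the lists. All 23 had thus been listed as different between the tissues.

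Fits used whole numbers rounded from the estimated counts. R 4.3.3 was run with limma 3.58.1, DESeq2 1.42.0 and edgeR 4.0.16. The low-count filter was filterByExpr (minimum count 10), scaling was by TMM, and sulcus was set against culm by edgeR's quasi-likelihood test over 31936 unigenes with Benjamini-Hochberg adjustment. Calls required a log2 fold change beyond 1 with an adjusted p below 0.05. Standard errors are the log2 fold change divided by the square root of F. Log2 CPM for sums of squares and profiles used a prior count of 2. The fit was tested on simulated data with known changes.

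Same-numbered libraries deviated from their tissue means together (r = 0.713, 0.620 and 0.798 across unigenes, against −0.632 to −0.0750 for other numbers). Deviations from a tissue mean cancel out within the tissue, so positive values for the same number bring negative ones for other numbers. The negative values therefore add nothing. The pairing is taken from the values, which do not show what same-numbered libraries had in common. The study describes the numbers of its qRT-PCR as repeats of bamboos, but no source describes those of the libraries, and p-values measure only the spread between these libraries. The 5 unigenes and all lists were chosen with earlier results of these data known. Named were these 5, the plastid and antenna lists, and the 10 unigenes closest to the mean profile. Counts, medians and ranges cover all unigenes of a list, but not every one is reported singly here.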

Additional observations from a re-analysis of the deposited data

How the results depend on the processing

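The edgeR test called 0 unigenes in either direction without a block. With the replicate block it called 19 higher and 22 lower in sulcus, DESeq2 called 16 higher and 7 lower, DESeq2 with the replicate block 30 higher and 65 lower, and edgeR without a filter on low counts 2 higher. RLE size factors, limma voom, a minimum count of 30, leaving out the 20 most abundant unigenes and leaving out any 1 library gave 0 in both directions.

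No log2 fold change of the 5 unigenes changed its sign under any of these alternatives. Of 70 such values, 69 moved by less than 1 SD between replicates, the exception being psbA without sulcus replicate 3. With 1 library left out psbA lay between 1.45 and 3.27, psbB between 1.2 and 1.29, psbK between 2.45 and 2.91, psbM between 3.26 and 4.36, psaA between 1.1 and 1.43, and the median between 1.45 and 2.91. Effective library sizes in place of column sums left all 15 pair ratios within their counting intervals. The mean log2 difference of the photosystem II to photosystem I ratio was 0.60 without psbM, and between 1.33 and 1.86 with 1 pair left out. The psbA unigene had at most 39 counts in 5 of the 6 libraries, which limits its precision.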
